A study of Rattus norvegicus with 3 samples.

Results

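Wnt ligands, their receptors and their regulators were followed in RNA from the acellular fraction of the rat spinal cord after a contusion. The genes were chosen by name, with earlier results of these data known. They are the Wnt, Frizzled, SFRP, Dickkopf, R-spondin, Axin, Dishevelled, TCF7 and TLE families together with named receptors, antagonists and components of the beta-catenin complex. Of 12758 symbols in the table, 43 belonged to this set. The rat reference holds 73 protein-coding genes that fit the same names, and the other 30 were not analysed here. They include 10 of 19 Wnt ligands, among them WNT1, WNT3A and WNT11, and 9 of 13 receptors, among them FZD4, FZD7, LRP5 and ROR2. They also include AXIN1, TCF7, TCF7L2, DKK1, WIF1 and ZNRF3.

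The animals were Sprague Dawley rats, all females aged 3 months. Both groups had the vertebral lamina removed at T9, and the SCI group received a contusion through that opening while the No-SCI group did not. At 24 h about 2 mm of cord at T8, immediately rostral to the injury, was removed and dissociated at 6°C with a cold-active protease. The cells were spun out, and the RNA left in the supernatant was sequenced after depletion of ribosomal RNA. By the labels SCI has 1 library and No-SCI has 2, and the methods state 2 animals per condition. The table holds 1 FPKM value per group for each gene, made by the authors with Cuffdiff, where FPKM is a fragment count divided by the length of the transcript and the size of the library. Only these group values were used, so the spread between animals is unknown. By the labels each SCI value may rest on 1 library, and which libraries entered it is not known. No test between the groups could be made. The methods state the reads obtained per library, but not the number left after downsampling or the fragments behind each value. "Higher" and "lower" below mean a ratio of SCI to No-SCI of at least 2 in that direction, which describes these group values and carries no error.

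Wnt proteins are secreted, lipid-modified ligands that bind Frizzled receptors, together with LRP5 or LRP6 when the signal goes to beta-catenin. Without a ligand, beta-catenin is marked for degradation by a complex of AXIN, APC and GSK3, and with a ligand it enters the nucleus and switches TCF and LEF factors from repression with TLE proteins to activation. In the spinal cord the pathway patterns the embryonic neural tube, and in the adult it is known for the blood-brain barrier of vessels, oligodendrocyte differentiation, axon guidance and fibrous scarring.

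The form of the table bears on genes at low levels, where many Wnt genes lie. No value is below 1, and the share of values with the most decimals falls at 2 and at 11 FPKM. Adding 1 to every value would place breaks there, but the falls are only partial, so whether 1 was added is not known. If it was, ratios at low levels would be compressed. For the genes named, the ratio after subtracting 1 from both values is therefore given as well wherever it moves the fold by over 1.5 times. In addition, no symbol is under 1.4 FPKM in both groups. The 174 symbols under 1.4 in No-SCI start at 1.63 FPKM in SCI, and the 230 under 1.4 in SCI start at 1.41 FPKM in No-SCI. WNT5B, WNT6, WNT9A and FZD1 lie below that limit in No-SCI and SFRP2 in SCI, so these 5 are listed only because the other group was above its limit and they had to differ. Counts that include them are descriptions of the rows listed, not of the whole family.

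**Figure D1:**
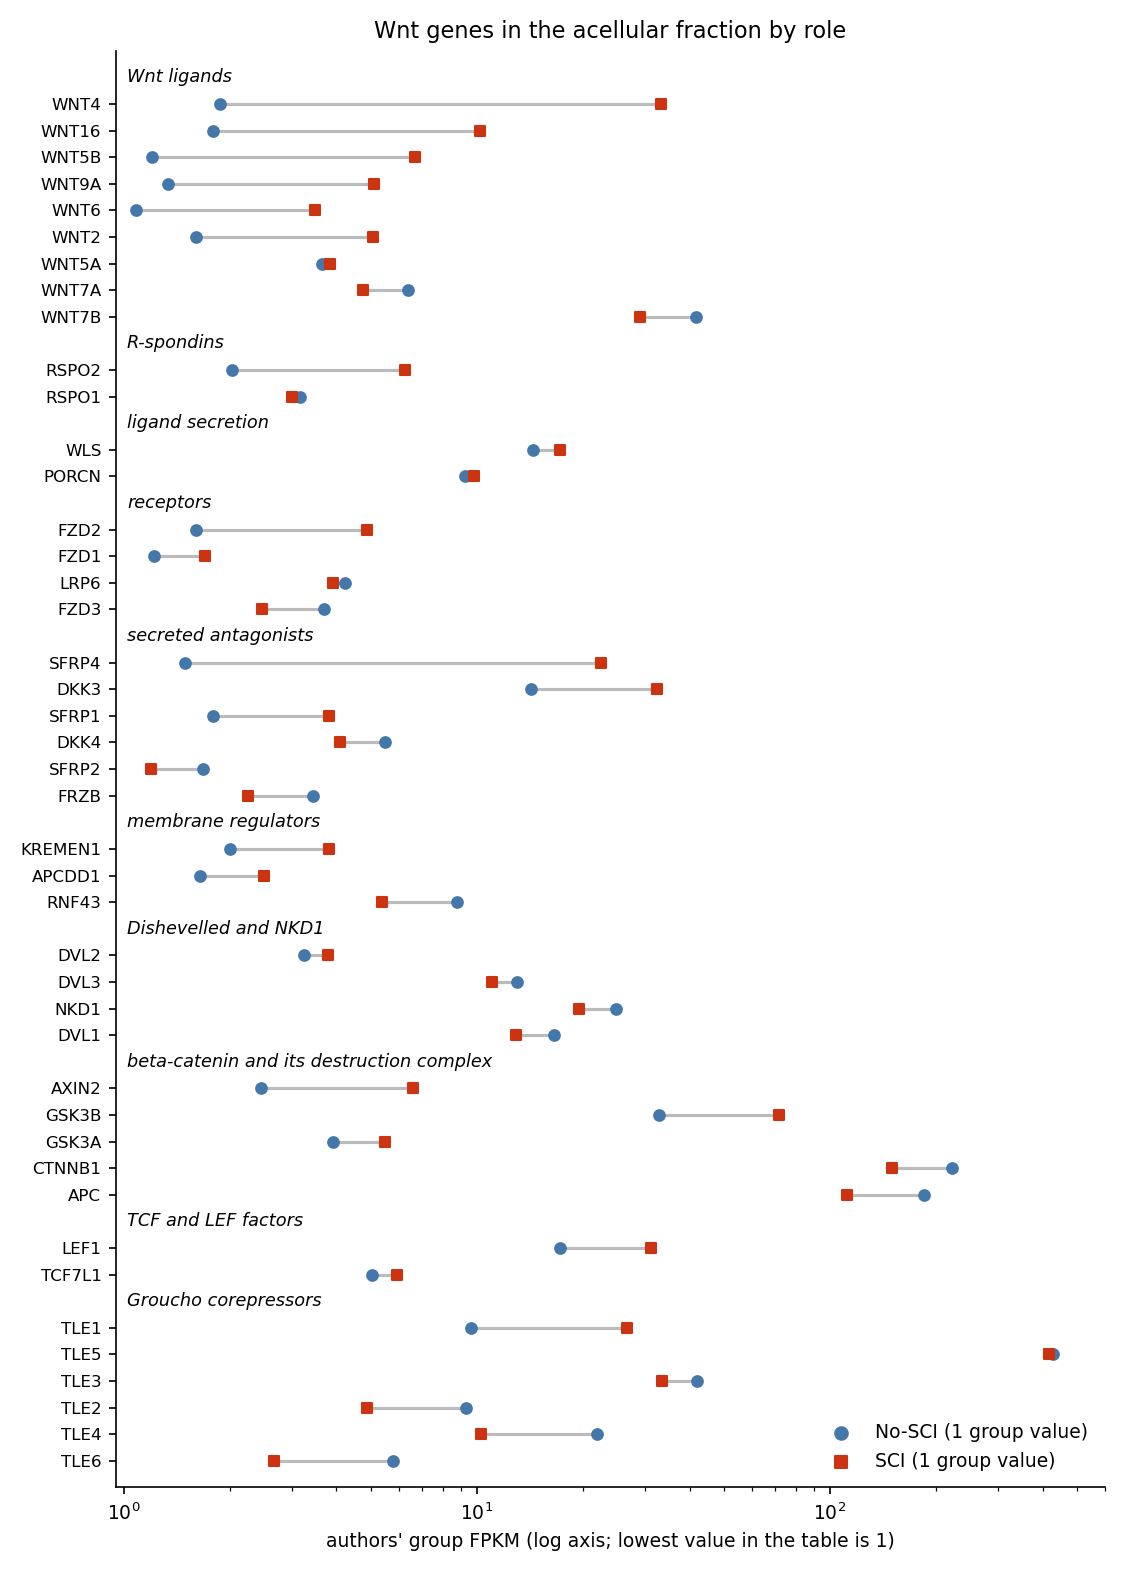
Authors' group FPKM of each of the 43 Wnt genes in No-SCI (blue circles) and SCI (red squares) on a log axis, ordered by role and, within a role, by the change. Each symbol is 1 group value with no error, and by the labels SCI has 1 library. The long lines that run to the right belong mainly to the ligands from WNT4 to WNT2 and to SFRP4, which start close to 1, while WNT7B, CTNNB1 and APC lie further left after SCI.

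Of the 43 genes, 14 (32.6%) were higher after SCI and 2 (4.65%) were lower. Over all 12758 symbols, 7.93% were higher and 12.1% were lower. As no value is below 1, a gene under 2 FPKM in No-SCI could not be 2-fold lower. That holds for 13 of the 43 Wnt genes and for 711 of all symbols, so the shares of lower genes are not on equal terms. The median log2 ratio was 0.22 for the Wnt genes and −0.12 for all symbols. Without the 5 genes that had to differ and all other symbols below those limits, an alternative chosen after seeing the data, 11 of 38 Wnt genes (28.9%) were higher against 7.64% of all symbols, and 2 (5.26%) were lower against 11.5%. These limits are unequal, 1.41 FPKM in No-SCI and 1.63 FPKM in SCI, with 180 and 397 of all symbols below them. The filter thus favours higher over lower genes in both sets. SFRP4, WNT2 and FZD2, all higher, stay in with No-SCI values below the SCI limit. Among genes with a mean of at least 5 FPKM, 6 of 22 Wnt genes (27.3%) were higher against 7.61% of all symbols. That mean includes the SCI value, and WNT4, WNT16 and SFRP4, each under 2 FPKM in No-SCI, pass it only through SCI. The share is therefore partly set by the values compared, and is no check on genes that start low. The median of those 22 genes turned to −0.14, against −0.11 for all symbols with such a mean. Of the 21 Wnt genes with a mean under 5 FPKM, 8 (38.1%) were higher and 1 (4.76%) was lower, against 9.17% and 11.8% of all symbols.

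The count depended on the fold. At 3-fold, 9 Wnt genes (20.9%) were higher and 0 lower, against 3.17% and 3.27% of all symbols. At 1.5-fold, 17 were higher and 6 lower, against 16.9% and 26.3% of all symbols, and at 1.3-fold 19 were higher and 12 lower, against 24.6% and 35.7%. After subtracting 1, which leaves 12703 symbols above 0 in both groups, 17 Wnt genes were at least 2-fold higher and 4 lower, against 10.4% and 16.2% of those symbols. At 3-fold on that scale 12 were higher and 1 lower, against 5.32% and 6.49%. The genes just past 2-fold were SFRP1, GSK3B and DKK3 at log2 ratios of 1.09, 1.13 and 1.18 and TLE4 and TLE6 at −1.08 and −1.12, and those just short of it were KREMEN1 at 0.94, LEF1 at 0.86 and TLE2 at −0.92.

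**Figure D2:**
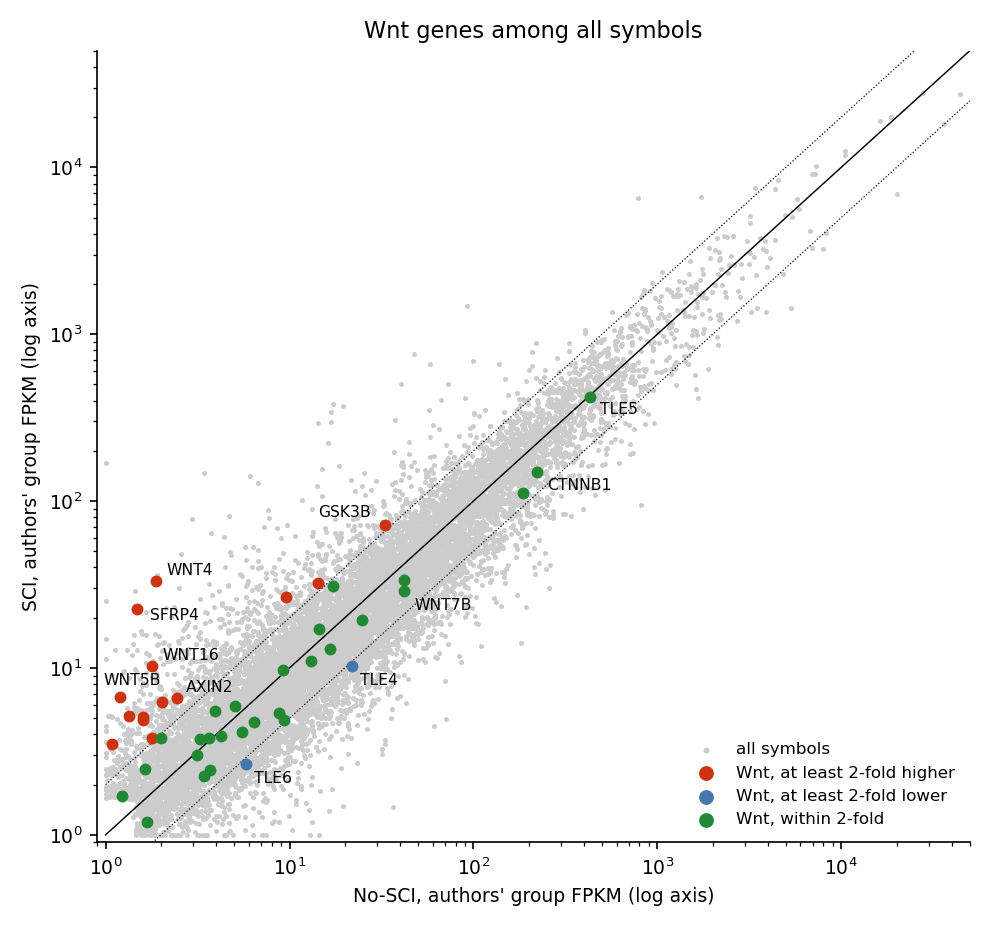
SCI against No-SCI group FPKM of all symbols (grey) and of the 43 Wnt genes, on log axes, with the line of equality and dotted lines at 2-fold. The higher Wnt genes (red) cluster at the left edge, where 9 of the 14 have a No-SCI value under 2, and the empty corner at the lower left shows that no symbol is low in both groups.

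By the place where the proteins act, the listed genes differed in their counts. Of 17 Wnt ligands, R-spondins and secreted antagonists listed, 10 (58.8%) were higher and none lower, with a median log2 ratio of 1.18. For 9 of these 17, under 2 FPKM in No-SCI, a call as lower was not possible. Of all symbols under 2 FPKM in No-SCI 26.7% were higher, so the share over all symbols is not on equal terms with this class. Of the 17 genes that act inside the cell, 3 (17.6%) were higher and 2 (11.8%) lower, with a median log2 ratio of −0.24. Here 0 of the 17 were under 2 FPKM in No-SCI, so the classes differ in starting level as well as in place. Of the 7 receptors and membrane regulators, 1 (14.3%) was higher. Among all symbols 7.93% were higher and 12.1% lower, so the share of lower genes inside the cell is near that of all symbols. The classes are not equally affected by the low limit, since WNT5B, WNT6, WNT9A and SFRP2 of the secreted class had to differ, as did FZD1 at the cell surface. Without them 7 of 13 secreted genes were higher, with a median log2 ratio of 1.09, and 1 of 6 at the cell surface. Of all symbols above the limits 7.64% were higher. The 17 genes inside the cell all lie above the limit. The difference between the classes was not tested.

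**Figure D3:**
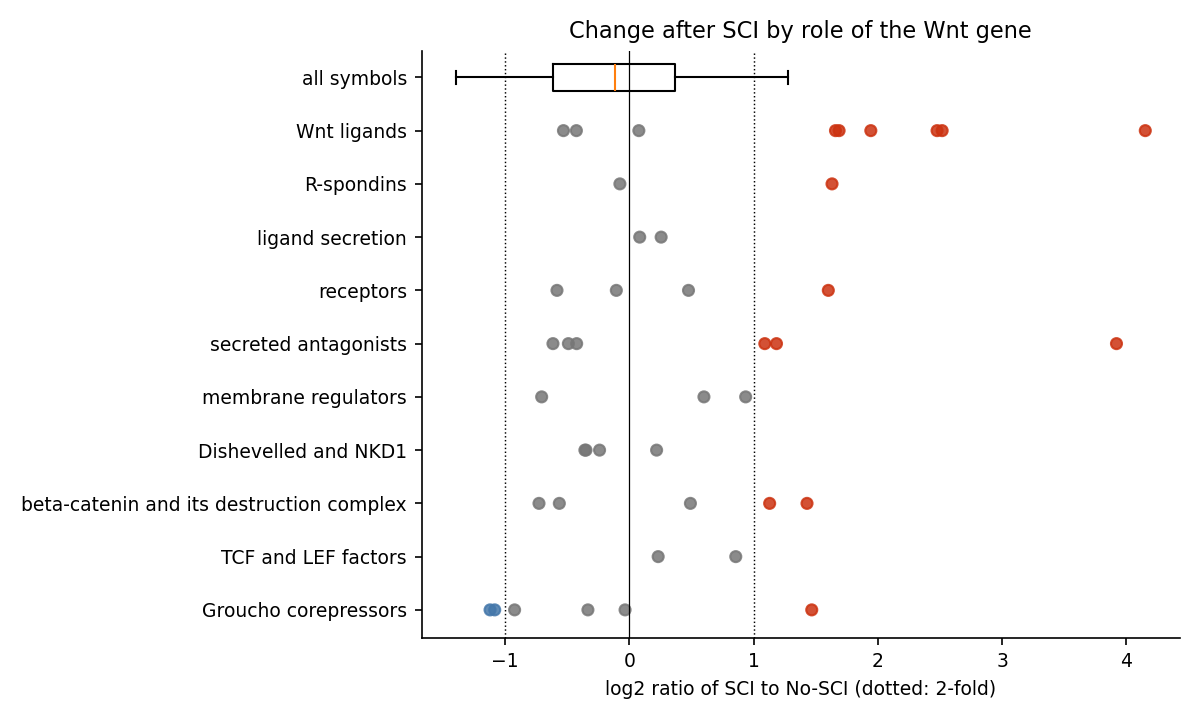
Log2 ratio of SCI to No-SCI of each Wnt gene by role, with dotted lines at 2-fold, and a box for all symbols (median and quartiles, whiskers at the 5th and 95th percentiles). The ligands split into 6 genes between 1.66 and 4.15 and 3 between −0.53 and 0.08, and the Groucho corepressors are spread over both directions.

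Among the ligands, WNT4, which acts in kidney, gonad and muscle development as well as in axon guidance in the cord, had the largest ratio. It was listed at 1.87 FPKM in No-SCI and 33.3 FPKM in SCI, a log2 ratio of 4.15 or 17.8-fold, and 37.0-fold after subtracting 1. It ranks 14 among all 12758 symbols by this ratio. WNT16, a ligand known for cortical bone, was at 1.78 FPKM in No-SCI and 10.2 FPKM in SCI (log2 ratio 2.52, or 11.7-fold after subtracting 1). These 2 ligands and WNT2 were above the low limit in both groups.

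WNT2, a ligand of lung and vascular development, was at 1.60 FPKM in No-SCI and 5.06 FPKM in SCI (log2 ratio 1.66). WNT5B, a ligand that signals largely without beta-catenin, was at 1.20 and 6.66 FPKM (log2 ratio 2.48), and WNT9A, known from joint formation, at 1.33 and 5.12 FPKM (log2 ratio 1.94). WNT6, an epithelial ligand, was at 1.08 FPKM in No-SCI, the lowest level of any Wnt gene there, and at 3.49 FPKM in SCI (log2 ratio 1.69). After subtracting 1 the folds were 6.73 for WNT2, 28.7 for WNT5B, 12.4 for WNT9A and 30.2 for WNT6. WNT6 then rests on 0.0824 FPKM in No-SCI, so that its fold on that scale rests on very little signal.

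The ligands that were well above the limit in No-SCI did not share this change. WNT7B and WNT7A, the neural ligands that act on brain and cord vessels through GPR124, were at 41.7 and 6.40 FPKM in No-SCI and at 28.9 and 4.76 FPKM in SCI. Their log2 ratios were −0.53 and −0.43, within 2-fold. ADGRA2, the gene of GPR124, was scarce in both groups, at 2.08 FPKM in No-SCI and 4.91 FPKM in SCI (log2 ratio 1.24, or 3.62-fold after subtracting 1). WNT5A, the paralog of WNT5B and a repulsive cue for corticospinal axons, was at 3.63 and 3.83 FPKM (log2 ratio 0.08). FPKM is scaled by length, so ligands can be set beside each other within a group. In No-SCI WNT7B was 22.3 times as abundant as WNT4 and made up 68.8% of the summed FPKM of the 9 listed ligands. After subtracting 1 it was 46.7 times as abundant. In SCI WNT4 was 1.15 times as abundant as WNT7B, with 32.8% of the sum against 28.5%. After subtracting 1, the share of WNT4 was 1.69% in No-SCI and 35.0% in SCI.

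R-spondins strengthen Wnt signals by removing the ubiquitin ligases RNF43 and ZNRF3 from the cell surface. RSPO2 was at 2.02 FPKM in No-SCI and 6.25 FPKM in SCI (log2 ratio 1.63, or 5.16-fold after subtracting 1), while RSPO1 was at 3.15 and 2.99 FPKM (log2 ratio −0.08). The sign of RSPO1 turns when the median of all genes is centred at 0 or the upper quartiles are made equal. The 2 genes needed to make and release Wnt proteins differed little between the groups. WLS, which carries Wnt proteins to the cell surface, was at 14.4 FPKM in No-SCI and 17.2 FPKM in SCI, and PORCN, which attaches their lipid, at 9.23 and 9.78 FPKM. Both were more abundant than any listed ligand except WNT7B in No-SCI.

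The 4 listed receptors were scarce in both groups. LRP6, the co-receptor for beta-catenin signals, had the highest No-SCI level of the 4 receptors listed, 4.22 FPKM, against 3.92 FPKM in SCI. The log2 ratio of LRP6, −0.10, turns positive when the median of all genes is centred at 0. FZD2, a receptor for ligands such as WNT5A, was the one listed receptor that was higher, with 1.61 FPKM in No-SCI and 4.87 FPKM in SCI (log2 ratio 1.60, or 6.39-fold after subtracting 1). FZD1 was at 1.22 and 1.70 FPKM (log2 ratio 0.48, or 3.16-fold after subtracting 1). FZD3, which guides axons through planar cell polarity signalling, was at 3.68 and 2.46 FPKM (log2 ratio −0.58). All 4 receptors stayed under 5 FPKM in both groups.

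Among the secreted antagonists, which bind Wnt proteins or LRP5 and LRP6 outside the cell, SFRP4 stood out. Its No-SCI level was 1.49 FPKM and its SCI level 22.5 FPKM. The log2 ratio was 3.92, or 15.1-fold, and 44.2-fold after subtracting 1, and it ranks 20 among all symbols. SFRP1 was also higher, from 1.78 to 3.80 FPKM (log2 ratio 1.09, or 3.57-fold after subtracting 1). The related SFRP2 and FRZB lay on the other side, with SFRP2 at 1.68 FPKM in No-SCI and 1.20 FPKM in SCI and FRZB at 3.44 and 2.25 FPKM, log2 ratios of −0.49 and −0.61. After subtracting 1, SFRP2 was 3.47-fold lower, but this rests on 0.196 FPKM in SCI, and SFRP2 is one of the genes that had to differ.

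DKK3, a divergent Dickkopf protein that does not act like the others on LRP5 and LRP6, was the most abundant listed antagonist in both groups. It was at 14.3 FPKM in No-SCI and 32.4 FPKM in SCI, a log2 ratio of 1.18 that moves little, to 1.24, after subtracting 1. DKK4 was at 5.51 and 4.10 FPKM (log2 ratio −0.42). Of the 6 antagonists, 3 were higher and the other 3 had log2 ratios below 0.

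The membrane regulators were within 2-fold as deposited. KREMEN1, which removes LRP6 together with Dickkopf proteins, was at 1.99 FPKM in No-SCI and 3.81 FPKM in SCI, just under the limit with a log2 ratio of 0.94. APCDD1, an inhibitor that is itself switched on by beta-catenin, was at 1.65 and 2.49 FPKM (log2 ratio 0.60). RNF43 had the highest mean of the 3, at 8.80 and 5.40 FPKM (log2 ratio −0.71). KREMEN1 and APCDD1 pass 2-fold after subtracting 1, with 2.83-fold and 2.31-fold, as does FZD1.

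**Figure D4:**
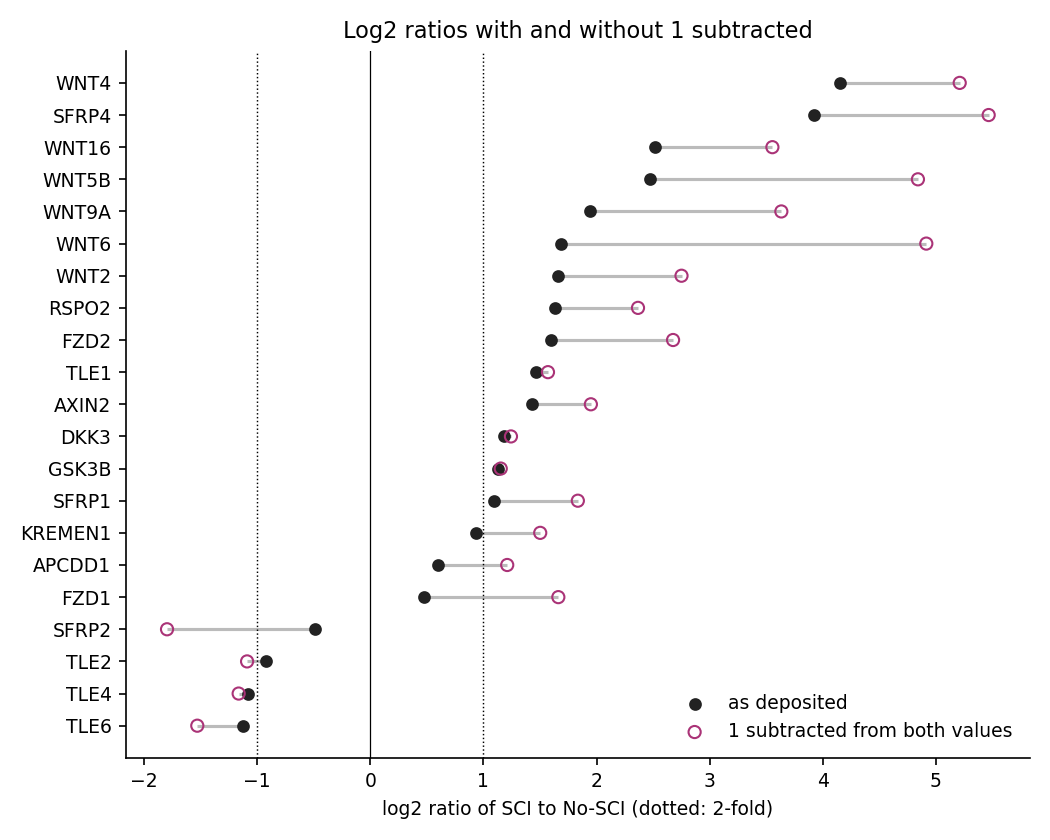
Log2 ratio of SCI to No-SCI as deposited (filled) and after subtracting 1 from both values (open) for each Wnt gene past 2-fold (dotted lines) on either scale. WNT5B and WNT6 move furthest, to 4.84 and 4.91, whereas GSK3B, DKK3 and TLE1 hardly move, and KREMEN1, APCDD1, FZD1, SFRP2 and TLE2 cross 2-fold.

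Inside the cell, AXIN2 and GSK3B were higher. AXIN2, a scaffold of the destruction complex and a general target gene of beta-catenin, was at 2.45 FPKM in No-SCI and 6.59 FPKM in SCI, a log2 ratio of 1.43 or 2.69-fold, and 3.86-fold after subtracting 1. GSK3B, the kinase that phosphorylates beta-catenin, went from 32.9 to 71.9 FPKM (log2 ratio 1.13), and its paralog GSK3A from 3.92 to 5.51 FPKM (log2 ratio 0.49). CTNNB1, the gene of beta-catenin itself, and APC, the large scaffold, were the most abundant genes of the complex and were both below their No-SCI level. CTNNB1 was at 222 and 150 FPKM (log2 ratio −0.56), while the log2 ratio of APC was −0.73.

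Genes that beta-catenin switches on as feedback were split. Of 5 such genes listed, 1 (20%) was higher, AXIN2, against 7.93% of all symbols. LEF1, APCDD1, NKD1 and RNF43 were within 2-fold, with log2 ratios from −0.71 to 0.86. NKD1, an inhibitor of Dishevelled, was at 24.8 FPKM in No-SCI and 19.5 FPKM in SCI. The Dishevelled genes, which carry the signal from Frizzled, were all within 2-fold, with log2 ratios of −0.36 for DVL1, 0.22 for DVL2 and −0.24 for DVL3, and DVL1, at 16.6 and 12.9 FPKM, was the most abundant of them.

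Stretches of the promoters of AXIN2, NKD1 and GSK3A are shown because they hold the letters that TCF and LEF factors bind. CTTTGAA and CTTTGAT were searched on both strands from 250 bases before to 50 after each gene's start in RefSeq (GRCr8, an assembly other than that of the values), and 32 of the 43 genes had a promoter there. Either form occurs in 8.64% of all 27457 promoters, in 5.64% of the 9762 promoters of symbols in the table and in 3 of the 32 (9.38%), those of AXIN2, NKD1 and GSK3A. The capitals mark the motif, and the genes shown were chosen after their values were seen.
AXIN2, chr10:94398544-94398568, plus strand, motif 232 bases before the start: agatttcgcCTTTGAAaaagctgtg
AXIN2, chr10:94398644-94398668, plus strand, motif 132 bases before the start: actttcttgCTTTGATgttgggtag
NKD1, chr19:34722972-34722996, minus strand, motif 141 bases before the start: ccgcctcgcCTTTGATgggccgctg
GSK3A, chr1:89953728-89953752, minus strand, motif on the other strand 229 bases before the start: actatgtttTTCAAAGtgcttccaa
The log2 ratios of these 3 genes were 1.43 for AXIN2, −0.35 for NKD1 and 0.49 for GSK3A, and no relation to the motif can be read from so few genes chosen in this way.

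Of the nuclear factors, LEF1, an activator with beta-catenin that is active in brain vessels, was at 17.2 FPKM in No-SCI and 31.1 FPKM in SCI, a log2 ratio of 0.86. TCF7L1, which mostly represses, was at 5.05 and 5.93 FPKM (log2 ratio 0.23). The TLE genes, the Groucho corepressors that TCF factors recruit, went in opposite directions. TLE1 was 2.77-fold higher, from 9.63 to 26.6 FPKM. TLE4 and TLE6, the 2 Wnt genes that were lower, went from 21.8 to 10.3 FPKM and from 5.77 to 2.65 FPKM, with log2 ratios of −1.08 and −1.12. TLE2, at 9.29 and 4.90 FPKM, was just within 2-fold (log2 ratio −0.92). TLE3 was at 42.1 and 33.4 FPKM (log2 ratio −0.33). TLE5, a short family member that lacks the repression domain, was the most abundant Wnt gene of all, with 429 FPKM in No-SCI, at percentile 96.4 of all symbols, and 418 FPKM in SCI. Its log2 ratio of −0.03 turns positive with median centring, equal totals and equal upper quartiles alike.

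The other genes of the pathway, from a list of 80 of which 63 were analysed, are given for comparison. Of these, 8 (12.7%) were higher and 11 (17.5%) lower, against 7.93% and 12.1% of all symbols, with a median log2 ratio of −0.19. Their difference from the Wnt set was not tested. At the cell surface, GPC3, a glypican that binds Wnt proteins, was at 2.51 FPKM in No-SCI and 14.1 FPKM in SCI (log2 ratio 2.49, or 8.70-fold after subtracting 1), and CTHRC1, a secreted cofactor of planar cell polarity signals, at 4.34 and 11.0 FPKM (log2 ratio 1.35). TSPAN12, a partner of the Norrin receptor, was lower, from 208 to 84.0 FPKM (log2 ratio −1.31). In the cytoplasm, the Dishevelled antagonists DACT2, DACT1 and NKD2 were higher, with log2 ratios of 1.98, 1.75 and 1.64, while their relatives DACT3 and NKD1 were at −0.25 and −0.35. CBY1, a small nuclear antagonist of beta-catenin, was higher as well, 2.10-fold from 5.71 FPKM in No-SCI (log2 ratio 1.07). Both subunits that recognise phosphorylated beta-catenin for degradation were lower, BTRC from 161 to 69.5 FPKM and FBXW11 from 179 to 77.3 FPKM, each with a log2 ratio of −1.21. APC2, TNIK and CCDC88C were lower too, with log2 ratios of −1.23, −1.31 and −1.21.

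Of 15 listed planar cell polarity genes 0 were higher and 4 (26.7%) lower, against 7.93% and 12.1% of all symbols. These were DAAM2, a formin that was 5.05-fold lower, from 11.1 to 2.19 FPKM (8.46-fold after subtracting 1), together with DAAM1, PRICKLE2 and VANGL2, with log2 ratios of −1.30, −1.27 and −1.24. Toward higher values but within 2-fold were PRICKLE3, RAC1, RYK and MAPK8, with ratios of SCI to No-SCI of 1.92, 1.81, 1.79 and 1.74. Of 8 listed target genes of beta-catenin outside the set, 1 (12.5%) was higher and 0 were lower, against 7.93% and 12.1% of all symbols. It was SP5, a transcription factor at 1.34 FPKM in No-SCI and 3.68 FPKM in SCI. However, the No-SCI value of SP5 lies below the limit under which it had to differ, and its fold goes from 2.75 to 7.96 after subtracting 1. CCND1, which drives entry into the cell cycle, was at 342 and 409 FPKM (log2 ratio 0.26), and CD44, an adhesion receptor, at 309 and 184 FPKM (log2 ratio −0.75).

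**Figure D5:**
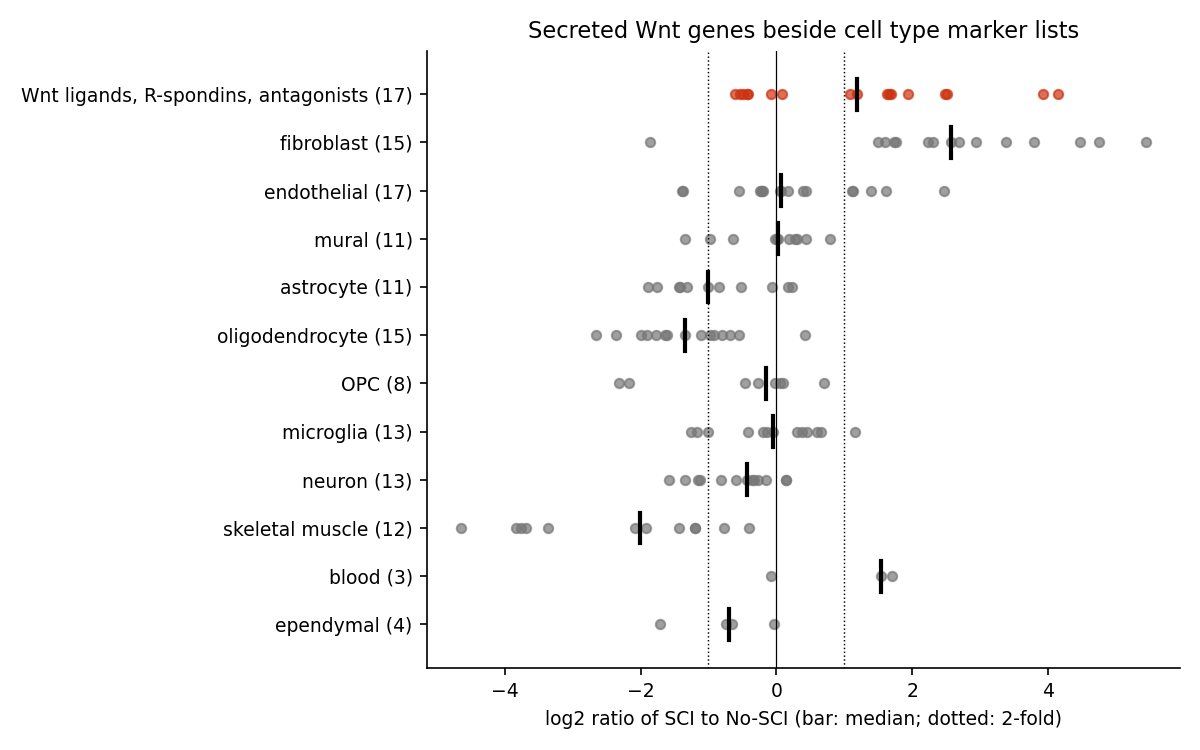
Log2 ratio of SCI to No-SCI of each listed gene of 11 cell type marker lists and of the 17 secreted Wnt genes (red), with the number of genes in brackets, bars at the medians and dotted lines at 2-fold. Of the fibroblast list 14 of 15 genes lie beyond 2-fold to the right, and the skeletal muscle and oligodendrocyte lists lie to the left.

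Markers of other cell types also differed between the groups, with the fibroblast list in the same direction as the higher Wnt genes and others in the opposite one. Of 18 fibroblast genes 15 were analysed, and 14 of them (93.3%) were higher, against 7.93% of all symbols. All these lists were chosen with earlier results of these data known, so such shares may be partly set by the choice. ALDH1A2 and COL3A1 of the fibroblast list, for example, are already reported as raised after SCI in the paper. The 15 genes had a median log2 ratio of 2.56 and a summed level of 87.8 FPKM in No-SCI against 978 FPKM in SCI. FOXC1, FOXC2 and FOXD1 are below the low limit in No-SCI and had to differ, and without them 11 of 12 were higher. CRABP2 and DCN are its most abundant genes, and SLC22A6, SLC47A1 and TBX18 were not analysed here. Of 17 listed endothelial genes 5 (29.4%) were higher and 2 (11.8%) lower, against 7.93% and 12.1% of all symbols. Their summed level was 115 FPKM in No-SCI and 175 FPKM in SCI, and PECAM1, TEK, TIE1 and ROBO4 were not analysed here. Without KDR, SLCO1C1 and VWF, which lie below the low limit in SCI, 5 of 14 were higher and 1 lower. Of all symbols above the limits 7.64% were higher and 11.5% lower. Of 12 listed skeletal muscle genes 10 (83.3%) were lower, with a summed level of 457 and 61.4 FPKM. However, MYH1 and MYH2 carry the same values and stand for 1 measurement. Without the 4 genes below the low limit 7 of 8 were lower, against 11.5% of all symbols above the limits. Of 15 oligodendrocyte genes 9 (60%) were lower, against 12.1% of all symbols, and all 15 lie above the limit. The median log2 ratios of the mural, microglia and neuron lists were 0.02, −0.05 and −0.44, and that of the astrocyte list was −1.01 with GFAP, AQP4, S100B, ALDOC and SLC1A3 not analysed here. The part of these cell types in the Wnt values was not tested. In bulk RNA a different number of cells, or of fragments of cells, and a different amount of RNA in each cannot be told apart.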

How the data were processed

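RNA of the acellular fraction of rat spinal cord was compared between No-SCI and SCI. The authors downsampled reads to the smallest library, mapped them to rn6 with STAR 2.5.4b and ran Cuffdiff 1.3.0 with upper quartile scaling, as the methods and the submitters' processing notes state. The deposited FPKM values are 1 per group, for 12771 entries with 12758 symbols. Where a symbol has more than 1 entry, which holds for 13 symbols and no Wnt gene, the entry with the higher mean FPKM was kept. The authors' own fold change, p-value, q-value and significance columns were not used. The columns were assigned by the group they name, and 0 measurement columns were left over.

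From the FPKM values log2(SCI / No-SCI) was computed without a pseudocount. A gene was called at 2-fold in either direction, and counts were set beside those of all symbols. With 1 value per group there was no test, replicate error is unknown, and the depth after downsampling is not given in the sources used here. Every Wnt gene in the table could be named. Of the other pathway genes, those past 2-fold with the largest changes and a mean of at least 5 FPKM were named, up to 8 in each direction, and ADGRA2, BTRC, FBXW11, DACT3, PRICKLE3, RAC1, RYK, MAPK8, SP5, CCND1 and CD44 were named after their values were seen. The members and lists were chosen with earlier results of these data known. The blood, ependymal and oligodendrocyte precursor lists had 3, 4 and 8 genes analysed and median log2 ratios of 1.54, −0.70 and −0.15.

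Alternatives were pseudocounts of 1 and 0.1, subtracting 1, median centring, equal totals, equal upper quartiles, a mean of at least 5 FPKM, the other entry of repeated symbols, and folds of 1.3, 1.5 and 3. The calling step was tested on simulated data. Promoter sequences came from RefSeq (GRCr8). Python 3.11.15, numpy 2.4.6, pandas 2.3.3 and matplotlib 3.10.9 were used.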

Additional observations from a re-analysis of the deposited data

How the results depend on the processing

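No paired analysis was possible because the table holds 1 value per group, and for the same reason no replicate could be left out. As deposited, 14 Wnt genes were at least 2-fold higher and 2 lower. The count of higher genes was 9 at a fold of 3 and 6 with a mean of at least 5 FPKM, where 22 of the 43 genes were left. The count of lower genes was 1 with a pseudocount of 1, after median centring, with equal upper quartiles and with a mean of at least 5 FPKM, 4 after subtracting 1, 12 at a fold of 1.3, 6 at 1.5 and 0 at 3. At a fold of 3 with 1 subtracted, chosen after seeing the data, it was 1. The median log2 ratio of the Wnt genes was 0.22 as deposited, 0.17 and 0.21 with pseudocounts of 1 and 0.1, 0.27 after subtracting 1, 0.34, 0.26 and 0.32 after median centring, equal totals and equal upper quartiles, and 0.080 above the lowest levels in both groups, an alternative chosen after seeing the data. It reversed to −0.14 with a mean of at least 5 FPKM, where low genes with large ratios such as WNT5B and WNT6 are left out. WNT4, WNT16 and SFRP4 stay in there through their SCI value. For the other pathway genes 8 were higher and 11 lower as deposited. These counts were 16 and 22 at a fold of 1.3, 15 and 21 at 1.5, and 4 and 1 at 3. Their median log2 ratio of −0.19 moved to −0.11 and −0.18 with the pseudocounts, and to −0.070, −0.14 and −0.083 with the scalings in the same order. It was −0.22 with a mean of at least 5 FPKM and −0.14 above the lowest levels in both groups. Median centring shifts every ratio up by 0.12 and equal upper quartiles by 0.10. SFRP1 and TLE6 are no longer past 2-fold with a pseudocount of 1, nor is TLE4 after median centring or with equal upper quartiles, where KREMEN1 passes. The direction of the 16 Wnt genes past 2-fold could not turn in any of these settings, so that it held is no check. Pseudocounts, subtracting 1 and filters leave the sign of a ratio as it is, and the scalings shift ratios by 0.12 or less.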

Other observations

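The low end of the table has a form that bears on all scarce transcripts. Values between 1.1 and 2 FPKM have 6 decimals in 86.7% of 670 No-SCI values and 88.2% of 706 SCI values, against 37.6% of 758 and 42.6% of 850 values between 2 and 3 FPKM. Between 10 and 11 FPKM 5 decimals occur in 79.8% of No-SCI values, against 64.9% between 11 and 12 FPKM. A number of 6 digits has 5 decimals between 1 and 10, and the breaks at 2 and 11 are where 1 added to such a number would place them. The breaks are partial, since many values past them keep the additional decimal. Whether 1 was added is therefore not known, and the folds after subtracting 1 apply only if it was. Exactly 1 is listed for 18 No-SCI and 37 SCI values, none of them of a Wnt gene.

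Symbols that start low were often higher after SCI whether or not they belong to the Wnt set. Of all 711 symbols under 2 FPKM in No-SCI, 190 (26.7%) were at least 2-fold higher, and of the 13 Wnt genes there 9 (69.2%) were. Of the 12047 symbols at 2 FPKM or more, 6.82% were, and of the 30 Wnt genes there 5 (16.7%) were. Choosing genes by a low No-SCI value favours a higher SCI value in both sets, so the shares are set beside each other without a test.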
